A study of Mus musculus with 48 samples.

Results

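The comparison described here is that of ribosome-bound RNA from gonadotropin-releasing hormone (GnRH) neurons of young female mice exposed before birth to dihydrotestosterone (DHT) with that of young mice exposed to vehicle. The libraries were taken by their labels: fraction GnRH-enriched immunoprecipitate (IP), age young, and prenatal treatment DHT or vehicle. They number 12 of the 48 libraries in the series, 6 from DHT mice and 6 from vehicle mice. The first group is young, prenatal DHT, and the second is young, prenatal vehicle; both carry the genotype GnRH CRE x Floxed L10a-GFP. In these mice Cre recombinase, expressed under the control of the GnRH gene, removes a stop cassette and so switches on a ribosomal protein, L10a, that carries the green fluorescent protein GFP. The preoptic area of the hypothalamus was punched out, the tagged ribosomes were pulled down, and the RNA that came with them was amplified and sequenced. The rest of each punch is the supernatant, which for young mice gives 6 DHT and 6 vehicle libraries. The same contrast in adult females in diestrus has 6 DHT and 5 vehicle IP libraries. There is also 1 young IP library from mice without Cre, which shows what the pull-down collects with no tagged ribosome. Replicates are labelled as biological, but no label says whether a library is 1 animal or a pool, so each p-value measures the spread between these libraries.

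GnRH neurons are the final common output by which the brain drives the pituitary to release luteinizing hormone and follicle-stimulating hormone. Female mice exposed to androgen before birth grow up with disrupted reproductive cycles and are used as a model of features of polycystic ovary syndrome; DHT is the androgen of choice because tissues cannot turn it into estradiol. GnRH neurons receive strong GABA input, which can excite them, and carry the kisspeptin receptor.

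In the pull-down Gnrh1 and Six6, which mark GnRH neurons, stood above the level without Cre, whereas Kiss1r stood close to it. Gnrh1, which encodes the precursor of GnRH (chr14:67745181-67749439, plus strand, mm10), had a lowest, median and highest level of 2816, 3135 and 4041 CPM (counts scaled to library size) in DHT IP libraries, against 1724, 3164 and 7352 CPM in vehicle IP libraries. In supernatant the highest level in any young DHT or vehicle library was 39.3 CPM, and the IP library without Cre had 61.6 CPM (95% exact Poisson interval 59.0 to 64.4, counting error only). Six6, a homeobox factor needed for GnRH neuron development, averaged 47.9 CPM in DHT IP and 55.8 CPM in vehicle IP, against 6.87 CPM without Cre. Kiss1r, the kisspeptin receptor, had a median of 20.4 CPM in DHT IP and 20.5 CPM in vehicle IP, close to the 18.1 CPM of the 1 IP library without Cre. The mice are labelled female, and 4 Y-linked genes reached at most 0.0251 CPM in any of the 12 libraries. Markers of other cells were also there in every library. The summed level of 14 oligodendrocyte genes spanned 3759 to 6042 CPM in DHT IP and 4164 to 5162 CPM in vehicle IP, and that of 14 astrocyte genes 1082 to 1473 CPM in DHT IP and 1178 to 1503 CPM in vehicle IP.

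Library totals were 34761129 to 45474341 counts in DHT IP and 33602900 to 46759953 counts in vehicle IP, and a two-sided exact permutation test detected no difference in totals or in 4 other library values (adjusted p = 0.918 for each). The median correlation between libraries was 0.898 within DHT, 0.888 within vehicle and 0.895 between the groups. Libraries were as unlike within a group as between groups.

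The labels of 5 of the 12 IP libraries did not match the supernatants. An IP and a supernatant of the same group and number would share the features of 1 dissection if the numbers mark it, which the labels do not state. In all 11 adult pairs (10 with 1000 genes) and in 7 of the 12 young pairs, the IP correlated best with the supernatant of its own label across the 300 genes that varied most. The other 5 young pairs, which carry the last 10 sample numbers, gave 0 of 5 best matches, with own-label correlations of -0.23 to 0.28 against 0.50 to 0.64 in the 7. The IP labelled DHT 4 matched the supernatant labelled vehicle 6 (r = 0.68), and the IP labelled vehicle 6 matched the supernatant labelled DHT 4 (r = 0.66). A gene of the cerebral cortex, Slc17a7, shows the same cross. It had 42.1 CPM in the IP labelled vehicle 6 and 89.2 CPM in the supernatant labelled DHT 4. In the IP labelled DHT 4 it had 0.116 CPM, and in the supernatant labelled vehicle 6 it had 2.14 CPM. Slc17a7 varied widely between libraries and may be 1 of the 300 genes, so it is no separate support. Which fraction, if either, carries the wrong labels was not determined, and the labels are used as given. The main genes and lists below therefore also carry a value from the 7 libraries with earlier numbers (3 DHT, 4 vehicle) and from the 5 with late numbers (3 DHT, 2 vehicle), and several carry one without the IP libraries labelled DHT 4 and vehicle 6.

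**Figure D1:**
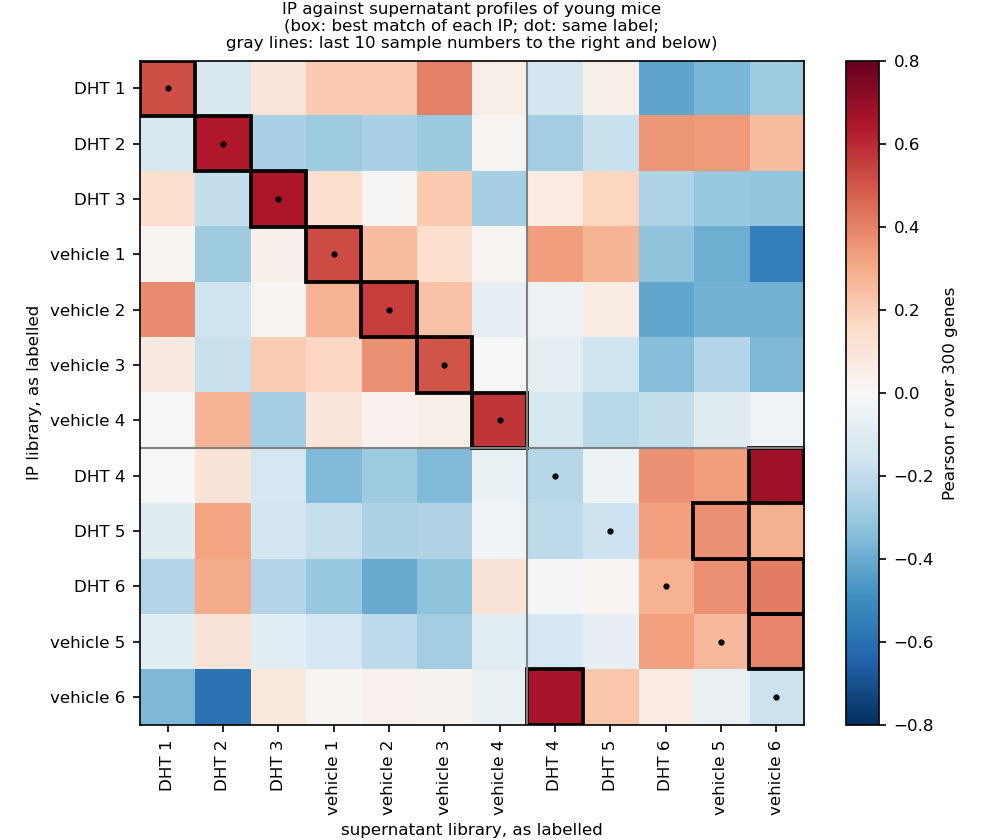
Correlation of each young IP library (rows) with each young supernatant library (columns) across the 300 most variable genes, with the best match of each IP boxed and the same-label supernatant dotted. The 7 IP libraries with earlier sample numbers match their own label, and the IP libraries labelled DHT 4 and vehicle 6 match each other's supernatant with r of 0.68 and 0.66.

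No transcript separated DHT from vehicle mice at an adjusted p under 0.05 in young GnRH neuron IP. Of 14997 genes tested, edgeR's quasi-likelihood test called 0 (0.0%), and the smallest Benjamini-Hochberg adjusted p was 1.00; limma-voom with sample weights called 0 as well. At an unadjusted p under 0.05 there were 430 genes (2.87%), 217 higher in DHT (1.45%) and 213 lower (1.42%). The levels in the 6 DHT and the 6 vehicle libraries did not overlap for 24 genes (0.16%), 8 higher (0.0533%) and 16 lower (0.107%). With no treatment difference, 6 and 6 libraries separate fully in either direction with a probability of about 0.0022 per gene. Neither this share nor that at an unadjusted p under 0.05 exceeded what is expected with no difference. DESeq2 on the same counts called 5 genes, Tmem130 and Cdh20 as higher in DHT and Slc17a7, Neurod6 and Bhlhe40 as lower. The values below describe these libraries, and none of the edgeR differences passed the test.

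Among the transcripts that stood higher in DHT IP, Tmem130 and Cdh20 led. Tmem130, a transmembrane protein of little known function (chr5:144735915-144761818, minus strand), had 232, 346 and 462 CPM as its lowest, median and highest level in DHT IP, against 164, 211 and 248 CPM in vehicle IP. The groups overlapped only in that the library DHT 6 lay below the highest vehicle library. The log2 fold change was 0.74 ± 0.15 (SE), with 95% limits of 0.42 and 1.05; DESeq2 gave an adjusted p of 0.00853. It was 0.96 in the early-number libraries, 0.43 in the late ones and 0.76 without DHT 4 and vehicle 6. In the supernatant Tmem130 averaged 496 CPM in DHT and 375 CPM in vehicle mice, a log2 fold change of 0.41 in the same direction.

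Cdh20 encodes a cadherin, a protein of cell-to-cell adhesion (chr1:104768529-104995481, plus strand). Its levels were 1.62, 5.92 and 9.03 CPM (lowest, median, highest) in DHT IP, against 0.151, 0.468 and 1.57 CPM in vehicle IP. Every DHT library lay above every vehicle library. The log2 fold change was 3.12 ± 0.68, and it was 2.95 in early-number libraries, 3.72 in late ones and 2.96 without DHT 4 and vehicle 6 (DESeq2 adjusted p = 0.00356). In supernatant the gene averaged 4.81 CPM in DHT mice and 4.97 CPM in vehicle mice, and the IP without Cre had 5.17 CPM (4.42 to 6.02). These levels lay nearer the DHT than the vehicle IP level. They are no reference for GnRH neurons, so which IP group was unusual was not determined. The treatment difference was 3.17 ± 0.63 larger on the log2 scale in IP than in supernatant, which did not pass across 16178 genes (edgeR adjusted p = 0.27). That fit had no term for IP and supernatant of the same label. In adult IP, where the gene ran from 0.0791 to 6.07 CPM in DHT and from 0 to 8.32 CPM in vehicle libraries, the log2 fold change was -0.90.

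The other named transcripts with the smallest p and a higher level in DHT were Gstm6, Fam134a, Tusc3, Galnt11, Faf2 and Slc41a3. Slc41a3, of a family of magnesium transporters, had 6.46, 7.14 and 11.9 CPM in DHT IP, against 2.28, 3.58 and 5.07 CPM in vehicle IP, with no overlap and a log2 fold change of 1.18 ± 0.34. Gstm6, a mu-class glutathione transferase, had 19.6, 39.4 and 59.1 CPM in DHT IP, against 13, 20.9 and 27.5 CPM in vehicle IP, with overlap and a log2 fold change of 0.95 ± 0.25. It is 1 of several near-identical Gstm genes, among which the counting could split reads, so its value is uncertain. In early and late libraries the difference was 0.89 and 1.5 for Slc41a3, and 1.04 and 0.80 for Gstm6. Log2 fold changes of the rest were 0.65 ± 0.19 for Faf2, which works in the removal of misfolded proteins from the endoplasmic reticulum (ER), and 0.50 ± 0.14 for Tusc3, a subunit of the oligosaccharyltransferase that glycosylates proteins in the ER. Fam134a, an ER membrane protein, stood at 0.48 ± 0.13, and Galnt11, an enzyme that starts O-glycosylation, at 0.43 ± 0.12. For Faf2 and Galnt11 early and late libraries gave 0.71 and 0.65, and 0.41 and 0.55, while Tusc3 and Fam134a stood at 0.66 in the early and at 0.27 and 0.24 in the late libraries.

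Among the transcripts that stood lower in DHT IP, Slc17a7 had the smallest p. It encodes the vesicular glutamate transporter VGLUT1 of cortical and hippocampal excitatory neurons (chr7:45163949-45176142, plus strand). The levels were 0.0684, 0.861 and 2.11 CPM in DHT IP, against 2.66, 12 and 42.1 CPM in vehicle IP. As labelled, the groups did not overlap, and the vehicle libraries differed widely among themselves. If the labels of the IP libraries DHT 4 and vehicle 6 were exchanged, the level of 42.1 CPM would fall in DHT and the groups would overlap. The log2 fold change was -4.03 ± 0.86, and it was -2.98 in early-number libraries, -6.01 in late ones and -3.22 without DHT 4 and vehicle 6 (DESeq2 adjusted p = 0.000238). In supernatant it ran from 1.75 to 89.2 CPM in DHT mice and from 1.48 to 63.6 CPM in vehicle mice, with full overlap, and the IP without Cre had 0.986 CPM. Neurod6, a transcription factor of the same cortical neurons, had at most 0.274 CPM in DHT IP and was at 0 in 3 of those 6 libraries, against a range of 0 to 9.42 CPM in vehicle IP (DESeq2 adjusted p = 0.00356).

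Both genes belong to a list of 13 tested cortical projection neuron transcripts, put together after their values were seen. On that list 1 of 13 stood higher in DHT IP and 12 lower, beside 46.9% above 0 and 53.1% below 0 over all genes tested. The median log2 fold change was -0.30 against -0.02 over all genes tested. At an unadjusted p under 0.05 there were 0 higher and 2 lower, beside 1.45% higher and 1.42% lower over all genes tested. The summed level of the list spanned 449 to 622 CPM in DHT IP and 496 to 905 CPM in vehicle IP, with overlap. A list of 12 striatal projection neuron transcripts, also put together afterwards, had 0 higher and 12 lower, with a median of -0.43 and sums of 496 to 978 CPM in DHT IP and 729 to 1677 CPM in vehicle IP. Of these 12, 1 was lower at an unadjusted p under 0.05 and 0 higher. The striatal median was -0.19 in early libraries, with 2 of 12 higher, and -0.73 in late ones, and the cortical one was -0.23 with 3 of 13 higher and -0.39 with 4 of 13 higher. In supernatant the cortical median was -0.12, again with 1 of 13 higher and 12 lower, so that lean was not confined to the pull-down. The striatal median there was 0.15, with 8 of 12 higher. Meis2, a homeobox factor on the striatal list, had 27.5, 37.3 and 46.8 CPM in DHT IP, against 44.9, 57.3 and 128 CPM in vehicle IP (log2 fold change -0.92 ± 0.24, with -0.85 in early and -0.96 in late libraries). The part that tissue from the cortex or the striatum played in these differences was not tested. In bulk RNA such as this, fewer cells of a type and less RNA per cell cannot be told apart.

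Bhlhe40 separated the groups most evenly. This repressor of transcription, induced by activity and part of the circadian system (chr6:108660629-108666925, plus strand), had 23.5, 26.4 and 30.0 CPM in DHT IP, against 36.6, 40.8 and 45.9 CPM in vehicle IP. The spread within each group was narrow and the groups did not overlap. Its log2 fold change was -0.62 ± 0.14, with -0.61 in both early and late libraries and -0.60 without DHT 4 and vehicle 6 (DESeq2 adjusted p = 0.00853). In supernatant it averaged 42.0 CPM in DHT and 44.6 CPM in vehicle mice, and in the IP without Cre it was 38.2 CPM. These levels lay nearer the vehicle than the DHT IP level, but they are no reference for GnRH neurons. The IP difference exceeded that in supernatant by -0.53 ± 0.14, with an edgeR adjusted p of 0.52.

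Fhl2, a LIM-domain protein that acts as a cofactor of transcription factors (chr1:43123074-43196984, minus strand), had 13.8, 20.1 and 30.1 CPM in DHT IP, against 31.6, 35.0 and 39.8 CPM in vehicle IP. Rgs14, a regulator of G-protein signaling, had 9.23, 14.7 and 19.2 CPM in DHT IP, against 20.6, 25.6 and 30.8 CPM in vehicle IP. Uaca had 2.41, 6.75 and 8.44 CPM in DHT IP, against 9.34, 14.0 and 20.9 CPM in vehicle IP. None of these 3 overlapped, and their log2 fold changes were -0.76 ± 0.18, -0.86 ± 0.22 and -1.27 ± 0.34. Atf4, the transcription factor of the integrated stress response, had 139, 181 and 210 CPM in DHT IP, against 219, 229 and 270 CPM in vehicle IP, again without overlap (-0.39 ± 0.11). Early libraries gave -0.91 for Fhl2, -1.08 for Rgs14, -1.70 for Uaca and -0.42 for Atf4, and late ones -0.60, -0.69, -1.02 and -0.39 in the same order. The groups overlapped for the last 4 genes named by smallest p, which were Mapk8 (-0.94 ± 0.27), encoding the kinase JNK1, Rnf20 (-0.62 ± 0.18), a ubiquitin ligase for histone H2B, Dtwd2 (-1.33 ± 0.39) and Id3 (-0.70 ± 0.20), an inhibitor of basic helix-loop-helix factors. Early and late libraries gave the same sign for all 12 genes named as lower. These genes were picked by small p over the same libraries, which favors a shared sign, so it is no independent support.

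**Figure D2:**
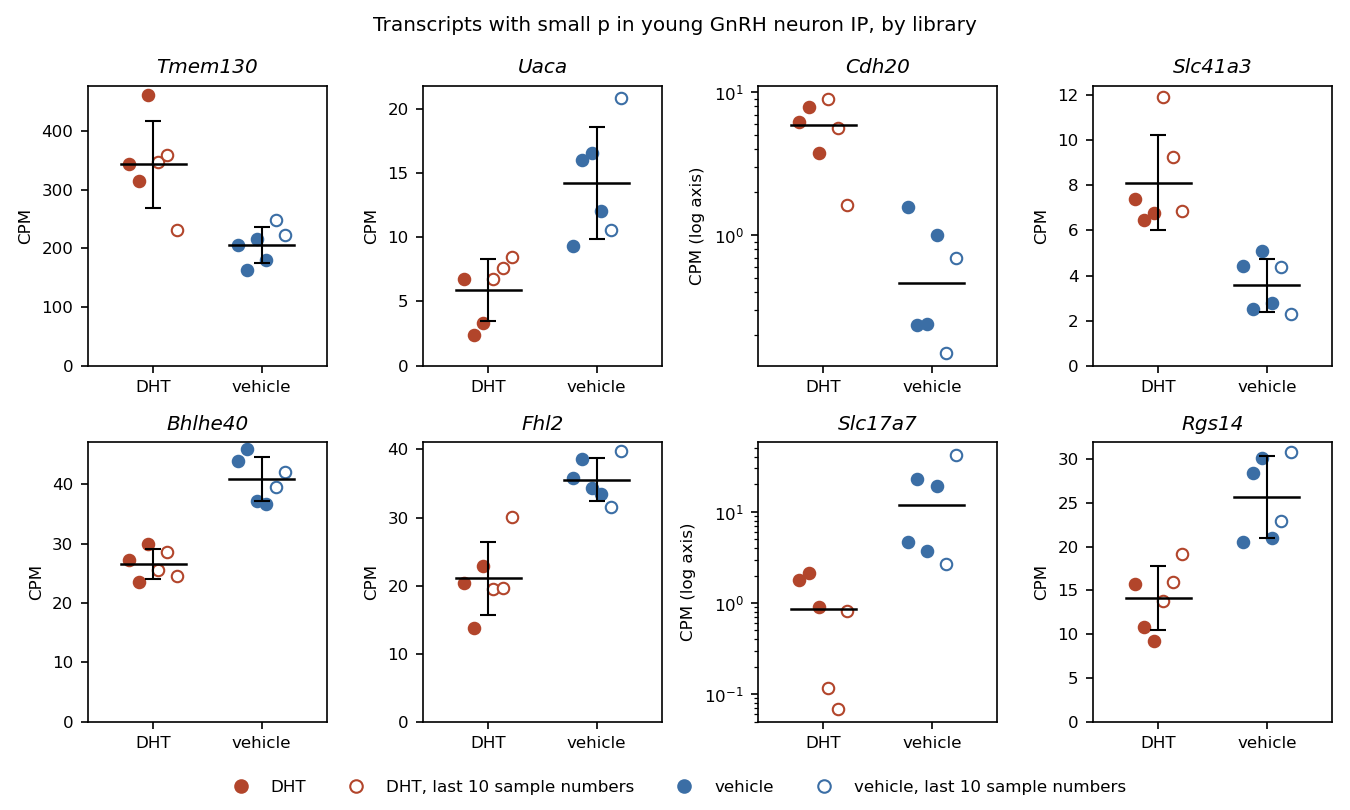
Level in CPM of 8 transcripts in each young IP library, DHT left and vehicle right, with open points for the last 10 sample numbers; bars are the mean with SD, or on the log axes of Cdh20 and Slc17a7 the median, and the other axes start at 0. Tmem130 overlaps through the library DHT 6 at 232 CPM, and the other 7 transcripts do not overlap between groups.

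Other genes without overlap, chosen after their values were seen, were Nudcd3 (0.39 ± 0.14), Sel1l (0.47 ± 0.15), Tbccd1 (0.56 ± 0.19), Tubb4b (0.24 ± 0.08) and Wipi1 (0.80 ± 0.29) on the higher side. Sel1l is a core part of the ER quality-control ligase complex, and Wipi1 acts in autophagosome formation. On the lower side they were Bcl2l2 (-0.59 ± 0.18), Diap3 (-0.78 ± 0.40), Fosb (-1.72 ± 0.95), Mat2b (-0.17 ± 0.08), Srp54a (-1.49 ± 0.51) and Zranb2 (-0.31 ± 0.09), all as log2 fold changes. Of the rest of the 24, 4 were unnamed or predicted genes.

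Genes of reproductive control in GnRH neurons gave no difference beyond the spread between libraries. Gnrh1 had a log2 fold change of -0.10 ± 0.26 (95% limits -0.64 and 0.44), and its sign rested on the library vehicle 6: without it the value was 0.25. Kiss1r stood at -0.03 ± 0.23, with limits of -0.50 and 0.45. Of 12 GnRH neuron genes 5 stood higher and 7 lower, with a median of -0.06. Gal, the peptide galanin that GnRH neurons co-release, had 68.9, 99.2 and 130 CPM in DHT IP, against 51.9, 75.3 and 109 CPM in vehicle IP (0.34 ± 0.19). Its adult IP difference was -0.82, and the young difference exceeded the adult one by 1.19 ± 0.41 (edgeR adjusted p = 0.783). Kiss1, which GnRH neurons are not known to express and neighboring preoptic neurons do, stood at 0.72 ± 0.42.

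Of 9 steroid receptor genes tested, 5 stood higher in DHT IP and 4 lower, with a median of 0.21 that was 0.03 in early and 0.04 in late libraries. Their summed level was 598 to 845 CPM in DHT IP and 463 to 807 CPM in vehicle IP, beside 545 to 739 CPM in DHT and 492 to 758 CPM in vehicle supernatant. Most of the sum was Pgrmc1, a membrane protein that takes its name from progesterone binding, with means of 592 CPM in DHT IP and 463 CPM in vehicle IP. It was the 1 member with an unadjusted p under 0.05 (0.35 ± 0.15), beside 1.45% of all genes tested as higher. Esr1 had 3.63, 5.89 and 10.7 CPM in DHT IP, against 1.90, 5.27 and 9.30 CPM in vehicle IP, with supernatant means of 13.3 CPM in DHT and 13.5 CPM in vehicle mice. Esr2 had 0.151, 1.37 and 3.67 CPM in DHT IP, against 0.119, 0.758 and 2.41 CPM in vehicle IP, and Pgr had 12.7, 26.6 and 42.5 CPM in DHT IP, against 16.5, 28 and 43.8 CPM in vehicle IP. All 3 overlapped widely between the groups. The log2 fold changes were 0.21 ± 0.48 for the estrogen receptor gene Esr1, 0.73 ± 0.91 for Esr2, the estrogen receptor that GnRH neurons are known to carry, and -0.07 ± 0.31 for the progesterone receptor gene Pgr. Each of these 95% intervals included 0, and that of Esr2 reached from -1.20 to 2.66. Rpl10a, the gene of the tagged protein, stood at -0.15 ± 0.18, and Xist, transcribed from the inactive X chromosome, at -0.58 ± 0.71.

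Immediate early genes, which neurons switch on within minutes of activity, stood lower in DHT IP as a group. Of 35 tested, 7 had a log2 fold change above 0 (20%) and 28 below, beside 46.9% above 0 and 53.1% below 0 over all genes tested. At an unadjusted p under 0.05 there were 0 higher and 5 lower, beside 1.45% higher and 1.42% lower over all genes tested, and the median was -0.32. In supernatant the median was -0.04, but there too 10 of 35 stood higher and 25 lower, beside 47.0% higher among all its genes tested. In adult IP, which shares no library with the young contrast, the median was 0.06, with 19 of 35 higher. The early-number libraries gave -0.22 with 10 of 35 higher, the late ones -0.42 with 9 of 35 higher, and leaving out DHT 4 and vehicle 6 gave -0.32. This direction was known from earlier work on these files when the list was chosen.

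Arc, which acts at synapses in plasticity, had 17.4, 31.5 and 38 CPM in DHT IP, against 34.6, 48.3 and 69.4 CPM in vehicle IP. Egr4, a zinc-finger factor, had 2.97, 14.0 and 16.2 CPM in DHT IP, against 13, 21.6 and 29.7 CPM in vehicle IP. Nr4a1, an orphan nuclear receptor, had 14.3, 23.7 and 32.9 CPM in DHT IP, against 22.9, 35.1 and 59.1 CPM in vehicle IP. For all 3 the medians lay apart and the ranges overlapped. Their log2 fold changes were -0.82 ± 0.22, -0.79 ± 0.34 and -0.63 ± 0.25, and Egr1 and Gadd45b stood at -0.62 ± 0.24 and -0.60 ± 0.25. The last of these, Gadd45b, is a stress- and activity-induced gene linked to DNA demethylation. All 5 were closer to 0 in early libraries, from -0.25 for Gadd45b to -0.49 for Arc, than in late ones, from -0.72 for Nr4a1 to -1.39 for Egr4.

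The AP-1 genes did not move as a block. Fosb had at most 0.509 CPM in DHT IP and at least 0.518 CPM in vehicle IP, so the groups did not overlap but nearly touched (-1.72 ± 0.95). Fos, the most used activity marker, stood at -0.18 ± 0.23, Junb at -0.40 ± 0.23 and Jun at -0.01 ± 0.17. Npas4, which neurons induce by calcium entry, had 3.87, 4.82 and 8.36 CPM in DHT IP, against 0.550, 4.96 and 15.4 CPM in vehicle IP. Its log2 fold change of -0.30 ± 0.55 became 0.89 in early-number libraries. Nr4a1 differed in adults the other way (0.76); the young difference was below the adult one by -1.38 ± 0.37 on the log2 scale (edgeR adjusted p = 0.598).

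**Figure D3:**
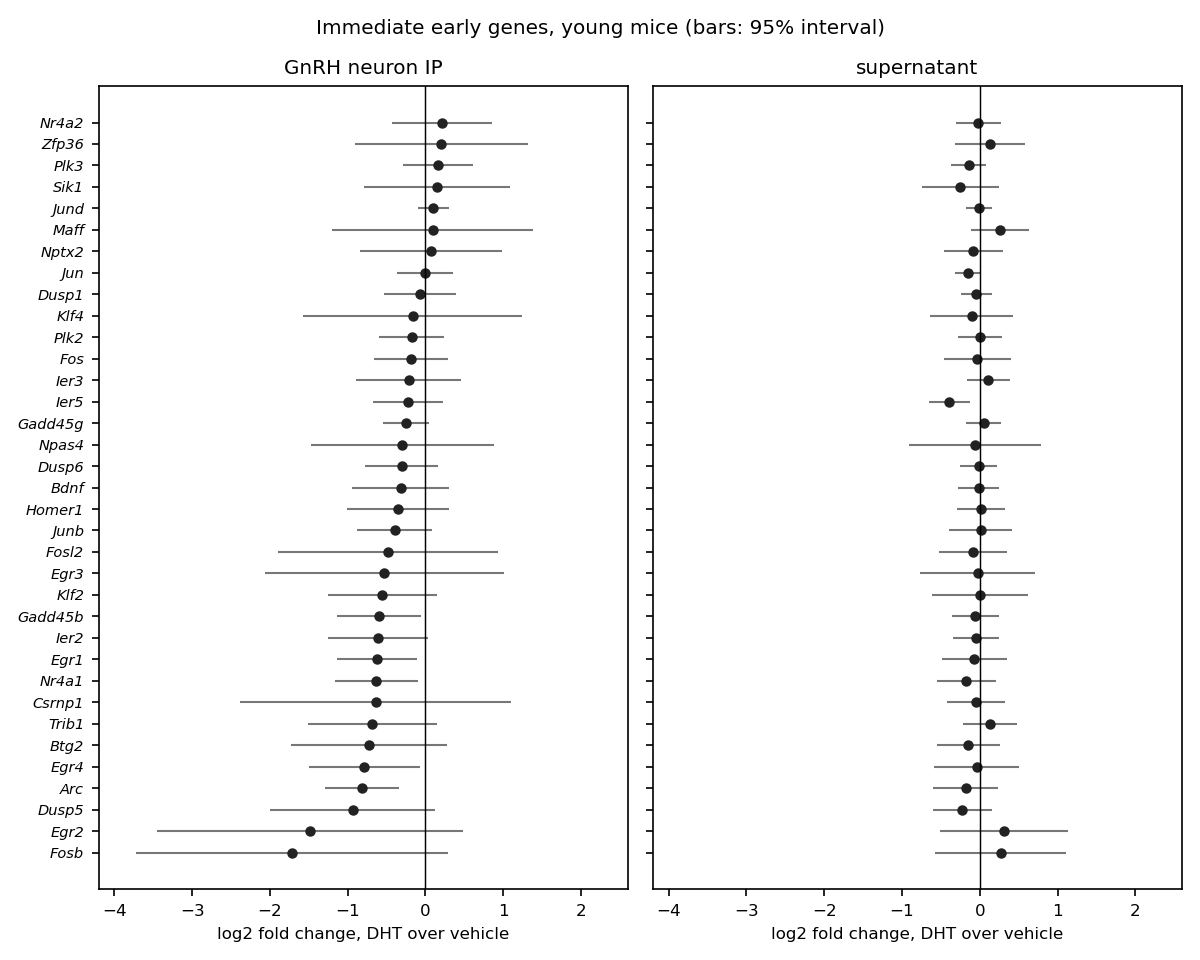
Log2 fold change of immediate early genes, DHT over vehicle, in young IP (left) and young supernatant (right), with 95% intervals as lines. In young IP 28 of 35 points lie below 0 with a median of -0.32. In supernatant 25 of 35 lie below 0 with a median of -0.04.

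Cholesterol synthesis genes leaned the other way. Neurons make part of their own cholesterol, and the pathway is switched on by SREBP2 through short elements in its promoters, next to CCAAT boxes bound by NF-Y. Of 20 genes tested, 16 stood higher in DHT IP (80%) and 4 lower, with 3 higher and 0 lower at an unadjusted p under 0.05 and a median log2 fold change of 0.16. Over all genes tested 46.9% stood higher, and 1.45% were higher at an unadjusted p under 0.05. Supernatant gave a median of 0.03 with 10 of 20 higher, beside 47.0% of all its genes tested, and adult IP 0.12. Early-number libraries gave 0.17, late ones 0.31 and the libraries without DHT 4 and vehicle 6 gave 0.11.

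Cyp51, lanosterol demethylase, had 23.7, 46.8 and 63.7 CPM in DHT IP, against 20.4, 29.0 and 36.4 CPM in vehicle IP. Sc5d, which acts late in the pathway, had 12.2, 22.3 and 43.8 CPM in DHT IP, against 7.81, 14.7 and 30.1 CPM in vehicle IP. Both overlapped between groups, with log2 fold changes of 0.75 ± 0.22 and 0.75 ± 0.36. For Cyp51 the difference was 0.30 in early and 1.22 in late libraries, and for Sc5d 0.77 and 0.81. Fdft1, squalene synthase, stood at 0.30 ± 0.14 and Fdps, farnesyl diphosphate synthase, at 0.32 ± 0.15. Hmgcs1, an early enzyme of the pathway, stood at 0.18 ± 0.14, and the lowest member, Hsd17b7, at -0.30 ± 0.67. Of 11 genes of SREBP control and cholesterol uptake, 7 stood higher, with a median of 0.02.

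The promoters of these genes share a motif. In RefSeq windows of 300 bases around the start (GRCm38.p6), searched on both strands, CCAAT was found in 14 of the 15 cholesterol synthesis genes with a window (93.3%), against 41.1% of all genes. The sterol regulatory element TCACNCCAC was found in 1 of 15 (6.67%), Hmgcs1, against 1.44% of all genes. The 250 bases before the start are shown for Cyp51, which had the smallest p on the list, and for Hmgcs1, which holds both motifs. Capitals mark CCAAT, or ATTGG where it lies on the other strand, and in Hmgcs1 also the sterol element. The windows are chr5:4104698-4104947 on the minus strand and chr13:119690101-119690350 on the plus strand, printed 5′ to 3′.
Cyp51: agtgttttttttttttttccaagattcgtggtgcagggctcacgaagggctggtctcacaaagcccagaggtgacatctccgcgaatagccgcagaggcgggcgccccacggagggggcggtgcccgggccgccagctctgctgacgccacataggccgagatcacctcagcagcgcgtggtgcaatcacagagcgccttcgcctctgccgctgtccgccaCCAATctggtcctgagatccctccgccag
Hmgcs1: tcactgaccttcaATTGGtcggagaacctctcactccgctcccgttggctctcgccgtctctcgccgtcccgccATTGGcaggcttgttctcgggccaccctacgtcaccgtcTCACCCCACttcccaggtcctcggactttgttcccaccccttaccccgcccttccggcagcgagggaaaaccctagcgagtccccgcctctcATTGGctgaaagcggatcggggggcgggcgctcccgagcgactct
In Cyp51 the box lies near the start, and Hmgcs1 holds 3 of them with the sterol element between. A match describes the letters and does not show that a factor binds there.

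Among immediate early genes, the cAMP response element TGACGTCA was found in 4 of 30 windows (13.3%), against 2.03% of all genes, and the CArG box, to which serum response factor binds, in 3 of 30 (10%), against 1.81% of all genes. Fhl2, which is not on that list and did not overlap between the groups, has a CArG box in the windows of both of its RefSeq starts. That of the upstream start (chr1:43196762-43197011, minus strand) holds it at position -96 from the start, and that of the internal start, printed here with the box in capitals (chr1:43163962-43164211, minus strand), at -31. How many other genes named as lower have the box is not given, so this match shows no link to the immediate early genes.
Fhl2: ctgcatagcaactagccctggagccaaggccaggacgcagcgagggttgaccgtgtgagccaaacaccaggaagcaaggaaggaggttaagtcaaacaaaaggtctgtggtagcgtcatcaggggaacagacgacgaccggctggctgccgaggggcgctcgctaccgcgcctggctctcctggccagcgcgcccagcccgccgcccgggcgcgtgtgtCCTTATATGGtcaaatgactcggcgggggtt

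**Figure D4:**
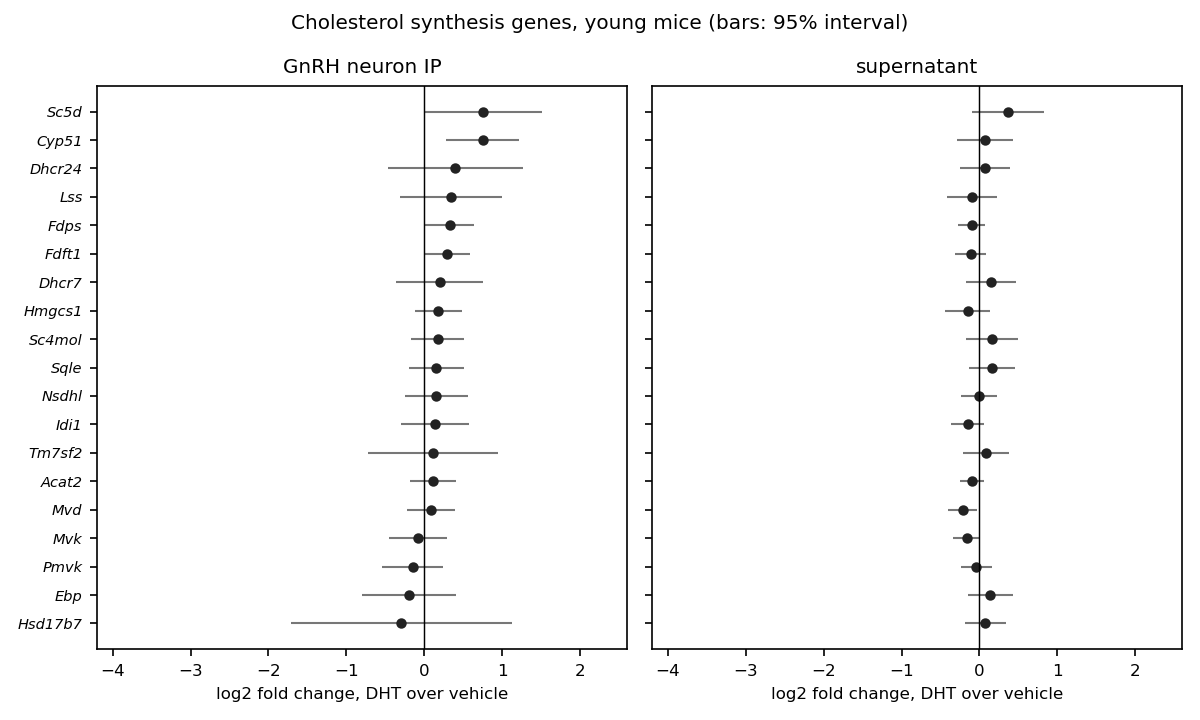
Log2 fold change of 19 cholesterol synthesis genes, DHT over vehicle, in young IP (left) and young supernatant (right), with 95% intervals as lines. In young IP 15 of the 19 points drawn lie above 0, led by Cyp51 and Sc5d at 0.75 each, and most intervals include 0.

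GABA and glutamate receptor genes stood at both ends. Of 25 genes of the GABA system 19 stood higher in DHT IP, 3 of them at an unadjusted p under 0.05, with a median of 0.13, beside 46.9% higher and 1.45% at that p over all genes tested. The median was 0.33 in early libraries, with 18 of 25 higher, and 0.19 in late ones, with 17 of 25. With the summed cortical markers as a covariate it was 0.01, with 13 of 25 higher. The supernatant median was 0.17 with 20 of 25 higher, so this lean was not confined to the pull-down. Gabra3, a subunit of the GABA-A receptor, had 26.5, 34.2 and 42.5 CPM in DHT IP, against 14.8, 19.9 and 29.4 CPM in vehicle IP. The medians lay apart and the ranges overlapped (0.65 ± 0.21, with 0.85 in early and 0.37 in late libraries), and the supernatant difference was 0.04. Of 28 glutamate genes 15 stood higher and 13 lower; Gria4, an AMPA receptor subunit, stood at 0.60 ± 0.18 (0.32 in early and 0.90 in late libraries), while Grm5, a metabotropic receptor, had 8.60, 16.1 and 24.6 CPM in DHT IP, against 20.7, 25.3 and 40.9 CPM in vehicle IP (-0.82 ± 0.25). For Grm5 the early-number libraries gave -0.32 and the late ones -1.50.

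The secretory machinery of peptide neurons leaned up. All 13 genes of prohormone processing and secretory granules tested had a log2 fold change above 0 (100%), from 0.07 to 0.58, with 2 at an unadjusted p under 0.05, beside 46.9% above 0 and 1.45% at that p over all genes tested. Scg2, secretogranin II, had 203, 343 and 431 CPM in DHT IP, against 133, 192 and 362 CPM in vehicle IP, and Chgb, chromogranin B, had 82.6, 114 and 133 CPM in DHT IP, against 51.8, 80.4 and 105 CPM in vehicle IP. The medians were apart and the ranges overlapped (0.58 ± 0.23 and 0.50 ± 0.19), and in early and late libraries Scg2 stood at 0.67 and 0.37 and Chgb at 0.57 and 0.36. The median of the list was 0.22 in IP and 0.17 in supernatant, where again 13 of 13 stood higher, and -0.10 in adult IP. It was 0.39 in early libraries, with 12 of 13 higher, and 0.06 in late ones, with 9 of 13. Of 24 ER stress and folding genes 22 stood higher (91.7%) with a median of 0.20, among them the chaperone Hspa5 (0.36 ± 0.17) and Pdia6 (0.42 ± 0.20), and Atf4 was 1 of the 2 that stood lower. That median was 0.26 in early libraries, 0.08 in late ones and 0.15 in supernatant.

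Myelin transcripts, which come from oligodendrocytes and not from neurons, stood higher in DHT IP. Of 14 tested, 11 stood higher, 4 of them at an unadjusted p under 0.05, with a median of 0.19, beside 46.9% higher and 1.45% at that p over all genes tested. In early libraries the median was 0.07 with 8 of 14 higher, and in late ones 0.32 with 11 of 14. Among these were Mog (0.49 ± 0.15), Mal (0.51 ± 0.20) and Mag (0.47 ± 0.20). Mog, a protein of the outer myelin surface, had 82.7, 89.5 and 114 CPM in DHT IP, against 50.8, 69.4 and 89.8 CPM in vehicle IP, and 72.5 CPM without Cre. The ranges overlapped. In supernatant the median was -0.07. Microglial genes stood higher in 11 of 14 with a median of 0.24 (supernatant 0.30), and astrocyte genes in 7 of 14 with a median of 0.02. With the summed glial markers as a covariate the median was 0.15 for cholesterol synthesis genes, 0.15 for prohormone genes and -0.27 for immediate early genes. For myelin genes the median was 0.04, but they are part of that sum, so the adjustment removes part of their own difference.

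Markers of other preoptic neurons stood higher in 13 of 16, with a median of 0.29 and 2 at an unadjusted p under 0.05, beside 46.9% and 1.45% over all genes tested. The median was 0.35 in early and 0.21 in late libraries. These 2 were Crh, corticotropin-releasing hormone (0.69 ± 0.28), and Slc5a7, the choline transporter of cholinergic neurons (0.56 ± 0.25). Early and late libraries gave 1.08 and 0.14 for Crh, and 0.58 and 0.50 for Slc5a7. Crh had 6.90 CPM and Slc5a7 23.6 CPM in the IP without Cre.

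Ribosomal protein genes gave a direction that rested on 1 library. Of 82 tested, 3 stood higher in DHT IP and 79 lower, with a median of -0.14, but without the IP labelled vehicle 6 the median was 0.17, and without both DHT 4 and vehicle 6 it was 0.14 with 77 of 82 higher. Genes of oxidative phosphorylation behaved alike, with 21 of 72 higher and a median of -0.06, against 68 of 72 and 0.14 without those 2 libraries. Of 40 potassium channel genes 20 stood higher, of 37 axon guidance genes 26, and of 32 chromatin regulators 8, beside 46.9% of all genes tested. The axon guidance count was 27 in early and 21 in late libraries, and 18 with the cortical covariate. For chromatin regulators it was 15 in early libraries and 15 in late ones. In supernatant 32 of 37 axon guidance genes and 6 of 32 chromatin regulators stood higher.

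**Figure D5:**
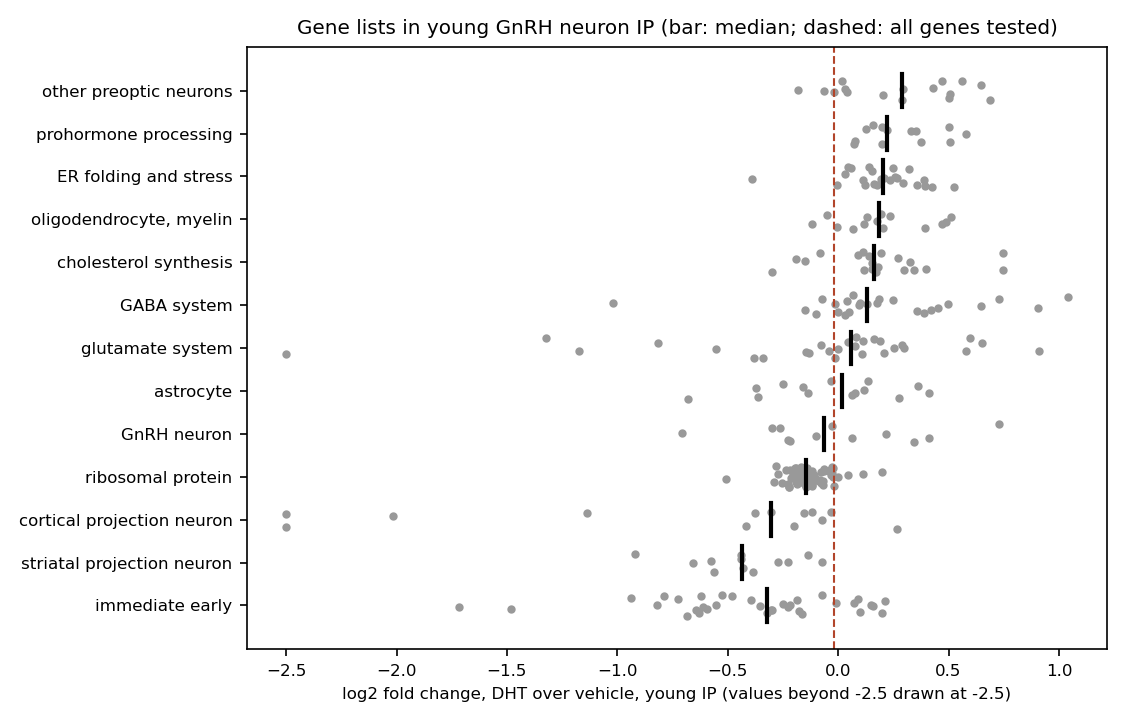
Log2 fold change, DHT over vehicle, of every tested member (points) of 13 gene lists in young GnRH neuron IP, with the list median as a bar and the median of all genes tested as a dashed line; values beyond -2.5 are drawn at -2.5. Prohormone genes lie wholly above 0 and striatal genes wholly below 0, while immediate early genes have a median of -0.32 and cholesterol synthesis genes a median of 0.16. The striatal and cortical lists were put together after values were seen, which favors a shared sign.

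The same contrast in the other samples gave equally few calls. In young supernatant edgeR called 0 of 15722 genes (0.0%), with 551 (3.5%) at an unadjusted p under 0.05, and in adult IP 0 of 14167 (0.0%), with 440 (3.11%). The supernatant count at that p depended on the libraries used. It was 1618 of 15887 genes without the last 10 sample numbers, and 1400 of 15788 without the supernatant labelled vehicle 6. In both of these fits edgeR called 0. The test of whether the DHT effect differed between young IP and young supernatant called 0 of 16178 genes (0.0%), with 472 (2.92%) at an unadjusted p under 0.05, and DESeq2 called 21. This fit treated IP and supernatant of the same label as independent. With a term for each labelled pair edgeR also called 0, with 587 at an unadjusted p under 0.05, although 5 of the 12 pairs did not match. In the fit without that term Cdh20 had the smallest p of the named genes. After it came Dtwd2 (-1.39 ± 0.36), Grm5 (-1.04 ± 0.27), Bhlhe40 and Rgs14 (-1.02 ± 0.28), as IP minus supernatant. The test of whether it differed between young and adult IP called 0 of 15890 (0.0%), with 857 (5.39%) at an unadjusted p under 0.05; DESeq2 called 58, and without the adult vehicle IP library 3 edgeR called 1. Of the named genes Gstm6 and Nr4a1 had the smallest p there, with young minus adult differences of 1.25 ± 0.33 and -1.38 ± 0.37 (edgeR adjusted p = 0.598 for each).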

How the data were processed

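RNA of the preoptic area was measured in immunoprecipitates and supernatants, and groups were taken from the labels. The authors deposited estimated counts per gene in 1 table of 23284 genes and 48 libraries, 98.49% of them whole numbers, without normalization. Per the submitters' processing notes, the build was mm10 and the tools named include HTSeq 0.6.1, Cuffdiff 2.1.1 and DESeq2 1.14.1, and for alignment and quality Bowtie2 2.2.1, TopHat2 2.0.13 and FastQC 0.11.3. The tool behind the deposited table was not given in the sources used here. Per the labels' protocols, poly(A) RNA was amplified with a SMARTer kit, which does not mark strand, so overlapping genes on opposite strands share reads. The table holds no mitochondrially encoded genes, so that share was not computed.

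Counts were rounded to whole numbers, genes with low counts were dropped (filterByExpr, minimum count 10, minimum total 15), and TMM-scaled values were tested with edgeR 4.0.16 (robust quasi-likelihood, R 4.3.3), with Benjamini-Hochberg adjustment over all genes tested and a threshold of 0.05. The fit held the 12 young IP libraries. Interactions were tested in joint fits with the supernatant or adult IP libraries. The joint fit with supernatant had no term for a shared dissection, so its SE and p ignore any such pairing. DESeq2 1.42.0 and limma 3.58.1 (voom with sample weights), other filters and scalings, glial and cortical covariates, left-out libraries and a replicate block were alternatives. The scripts were tested on simulated counts. Levels are TMM-scaled CPM, and log2 fold changes are DHT over vehicle. Same-numbered DHT and vehicle IP libraries deviated together with r of -0.00 to 0.13, over 0.1 in only some pairs, so the numbers were not used as pairs.

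The libraries, gene lists and named genes were chosen with earlier results of these data known. Named genes were the 12 with the smallest p in each direction reaching a group mean of 5 CPM (3 predicted genes among the higher ones not named), 10 reproductive and control genes, the 4 members with the smallest p of each list described, and members of the immediate early and cholesterol lists; others are said to be chosen afterwards. A few genes that these rules name are not reported here, and counts over lists include them. Of 900 listed symbols 897 matched the table, 12 through a synonym. Gene positions are from GENCODE (GRCm38, the mm10 assembly) and promoters from RefSeq (GRCm38.p6); a missing entry is left out.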

Additional observations from a re-analysis of the deposited data

Results flagged for a closer look

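Of 140 groups of 6 young IP libraries that were tested for 1 value far from the rest, 14 had one. A rate of about 1 in 20 would hold for independent groups of normally distributed values. These groups share the same libraries, and many of the genes were picked by small p, so that rate is no measure of chance here. The library vehicle 6 accounted for 5 of the 14. It had 7352 CPM of Gnrh1, where the other vehicle libraries had 1724 to 3523 CPM, 325 CPM of Rpl10a (others 148 to 191), 162 CPM of Fdps (others 111 to 125) and 636 CPM of Nrgn (others 268 to 355). Its TMM factor was 0.928 (others 0.998 to 1.03). It is also 1 of the libraries whose IP and supernatant labels did not match.

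Vehicle 5 had the highest levels of Fam134a (106.8 CPM; others 75.6 to 85.6) and of Tusc3 (145 CPM; others 87.1 to 107), and vehicle 1 of Nr4a1 (59.1 CPM; others 22.9 to 35.9). Without these 2 vehicle libraries in turn the direction of the 3 genes was kept. DHT 5 had 239.9 CPM of Fdps (others 134 to 160), 0.274 CPM of Neurod6 (others 0 to 0.0502) and 2.97 CPM of Egr4 (others 12.4 to 16.2). DHT 6 had 28.6 CPM of Faf2 (others 46.0 to 53.3), DHT 3 had 15.8 CPM of Slc5a7 (others 21.2 to 23.1) and DHT 1 had 114 CPM of Isl1 (others 83.9 to 91.7).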

How the results depend on the processing

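DESeq2 called 5 genes in young IP, 1 in young supernatant, 13 in adult IP, 21 for the difference between fractions and 58 for that between ages, where edgeR called 0 of each. Leaving out 1 library at a time, edgeR called 0 in each of the 3 contrasts, and between ages 0 to 1, the 1 without adult vehicle IP library 3; this was not run for the difference between fractions. Leaving out libraries moved the young IP count at an unadjusted p under 0.05 between 330 and 625. That count was 688 with the replicate block, in which edgeR also called 0, 723 without the last 10 sample numbers, 685 with a term for them, 239 with all IP libraries in 1 fit, 1221 with no filter and 931 with limma-voom. Signs turned mainly in genes near 0. Gnrh1 became 0.042 with the block, 0.24 with the cortical covariate, 0.18 without the last 10 sample numbers, 0.22 with limma-voom, 0.20 without DHT 4 and vehicle 6, 0.17 without DHT 4, DHT 6, vehicle 5 and vehicle 6, and -0.23 to 0.25 leaving out 1 library. Npas4 became 0.13 with the block and, in the same order, 0.20, 0.89, 0.44, 0.17, 0.76 and -0.54 to 0.14. Kiss1r became 0.086 without the last 10 sample numbers, 0.021 without DHT 4 and vehicle 6, 0.13 without those 4 libraries, and -0.14 to 0.067 leaving out 1. With only the late numbers Gal became -0.030; without them Esr2 became -0.46 and Pgr 0.23. With the cortical covariate Esr1 became -0.28, Rpl10a 0.10, Xist 0.42, Hmgcs1 -0.040 and Nrgn 0.12, and with the glial covariate Pgr became 0.086. Without the 4 libraries Esr1 became -0.16, and without DHT 4 and vehicle 6 Rpl10a became 0.011. Leaving out 1 library gave -0.016 to 0.43 for Esr1, -0.24 to 0.093 for Pgr, -0.23 to 0.033 for Rpl10a and -1.08 to 0.24 for Xist. The causes were not tested. The cortical covariate and the left-out libraries DHT 4, DHT 6, vehicle 5 and vehicle 6 were chosen after seeing the data.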
